A study of Mus musculus with 2 samples.

Results

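The complement system is a set of plasma and cell-surface proteins that tags microbes, immune complexes and dying cells for removal. In the classical pathway the recognition molecule C1q binds a surface, C4 and then C3 are cleaved, and C3 fragments coat the target, while factor B drives an amplification loop known as the alternative pathway. Host cells carry surface regulators that stop the cascade, and in the kidney macrophages are a known source of C1q and injured tubules a known source of C3. Expression of 8 complement genes is described here: C1qa, C1qb and C1qc, which encode the 3 chains of C1q, C4b and C3, Cfb (factor B), and the surface regulators Cd55 and Cd59a. They were taken by exact symbol from the 32285 gene models measured, and each symbol matched 1 model.

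Cells came from the kidneys of male C57BL6/J mice of 10 to 12 weeks, given saline or 20 mg/kg cisplatin, a chemotherapy drug that injures the proximal tubule, and were collected at 72 h. Each condition pooled 10 kidneys of 5 mice into 1 droplet library that counts the 3' ends of transcripts as unique molecular identifiers (UMIs), so the spread between mice was not measured and no test between treatments was possible. Cells were enriched on beads for CD31 and then podoplanin, the surface pair of lymphatic endothelium, and checked by flow cytometry among cells negative for the leukocyte protein CD45. All intervals below are exact 95% intervals, and they cover counting error only.

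Sequencing gave 5879496 UMIs for saline and 19994105 for cisplatin. Of the barcodes, 627 in saline (median 896 UMIs) and 1729 in cisplatin (median 746 UMIs) were kept, with at least 500 UMIs and at most 20% mitochondrial UMIs. No barcode with at least 500 UMIs was found in both libraries, and 23161 barcodes had at least 1 UMI in both. A barcode was assigned to the cell class of which it held the most distinct markers, from 10 markers for each of 7 classes, none of them a complement gene. The gates took 4 saline and 70 cisplatin leukocyte barcodes, 438 and 158 endothelial, 144 and 1155 proximal tubule, and 1 and 9 collecting duct barcodes. Markers of lymphatic endothelium, the label of these cells, were scarce in the endothelial gate. Of 7 lymphatic markers, 4 were detected in saline (Prox1, Lyve1, Flt4 and Pdpn) and 3 in cisplatin (Prox1, Flt4 and Pdpn). Mmrn1, Reln and Ccl21a were at 0 in both libraries and Lyve1 was at 0 in cisplatin. The 7 markers summed to 43.0 CPM (UMIs of a gene per 1000000 UMIs of the gate) in saline and 89.7 CPM in cisplatin. The 10 endothelial markers of the gate summed to 9004 and 9458 CPM.

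The complement genes fell into different compartments of these libraries. In cisplatin 50.1% of C1qa, 50% of C1qb and 57.1% of C1qc UMIs lay in the kept barcodes, where 14.3% of all UMIs lay. In saline those shares were 1.30%, 3.39% and 4.88%, against 19.2% of all UMIs. Cd59a had 42.7% of its UMIs in kept barcodes of saline and 35.8% in cisplatin, most of them endothelial. C3 had 1.67% and 11.1% there, C4b 7.14% and 4.46%, Cfb 7.39% and 15.6%, and Cd55 20.0% and 20.4%.

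**Figure D1:**
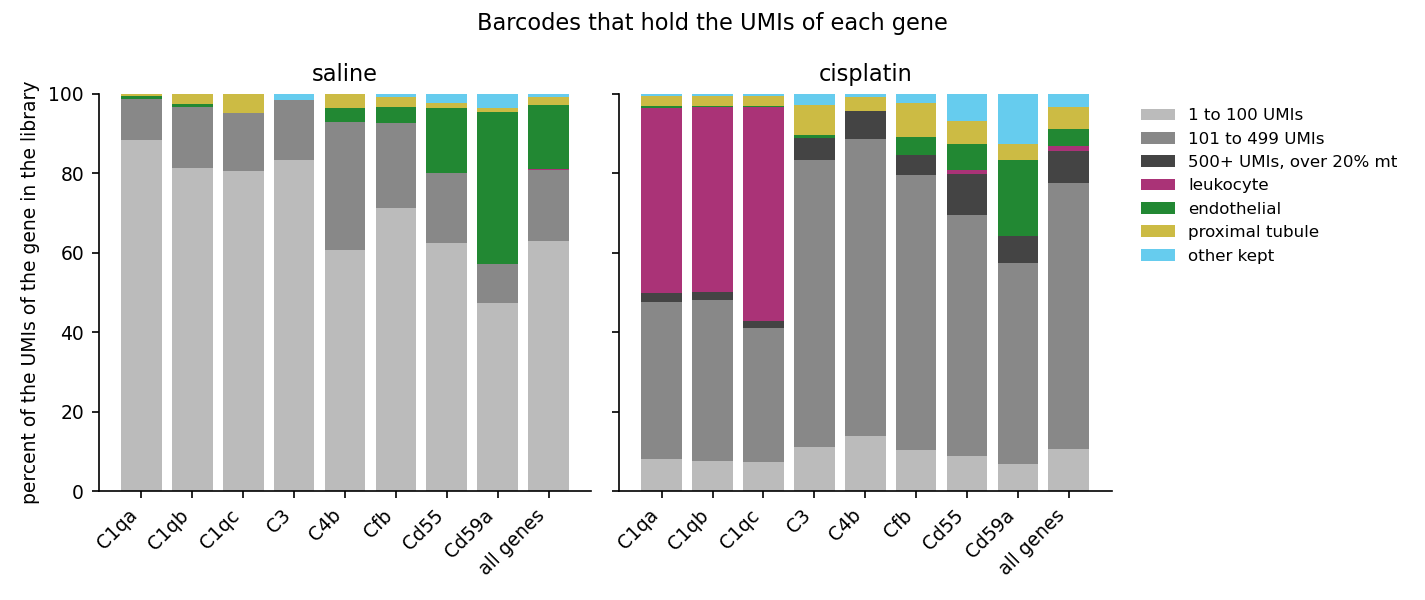
Percent of each gene's UMIs (y axis) that lay in each kind of barcode (colours), for the 8 complement genes and for all genes together (x axis), in the saline library (left) and the cisplatin library (right). The leukocyte block is large for the 3 C1q genes in cisplatin, and the endothelial block is largest for Cd59a in both libraries.

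C1q, the recognition molecule of the classical pathway, is built from equal numbers of A, B and C chains encoded by neighbouring genes. In the mouse genome (GRCm38, GENCODE M21) all 3 genes lie on the minus strand of chromosome 4 within 18675 bases: C1qb (ENSMUSG00000036905) at chr4:136880129-136886187, C1qc (ENSMUSG00000036896) at chr4:136889804-136893065 and C1qa (ENSMUSG00000036887) at chr4:136895917-136898803. The promoters of C1qb (chr4:136886151-136886450) and C1qc (chr4:136892865-136893164) are shown because the chains were detected together; they are RefSeq windows (GRCm38.p6, minus strand) from 250 bases before to 50 bases after the start. Capitals mark the letters ACTTCCT, which read AGGAAGT on the other strand, the core bound by ETS factors such as the macrophage factor PU.1.
C1qb: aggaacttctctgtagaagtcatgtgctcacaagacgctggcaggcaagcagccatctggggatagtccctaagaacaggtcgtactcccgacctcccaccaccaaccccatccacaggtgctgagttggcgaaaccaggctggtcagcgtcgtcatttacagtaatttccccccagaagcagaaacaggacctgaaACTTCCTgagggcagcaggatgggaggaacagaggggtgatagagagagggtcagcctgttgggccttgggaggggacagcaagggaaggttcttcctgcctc
C1qc: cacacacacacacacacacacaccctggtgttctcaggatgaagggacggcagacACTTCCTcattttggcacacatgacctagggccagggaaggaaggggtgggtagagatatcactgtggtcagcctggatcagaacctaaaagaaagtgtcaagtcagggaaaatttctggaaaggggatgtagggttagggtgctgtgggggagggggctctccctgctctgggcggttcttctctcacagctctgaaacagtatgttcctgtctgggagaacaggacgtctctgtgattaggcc
The match begins at position -53 relative to the start in C1qb and at position -195 in C1qc. On either strand, AGGAAGT occurred in 9.57% of 27025 promoters of this length, and no other motif searched matched these windows. A match of letters is a description and not a binding site.

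C1q transcripts in the cisplatin library were concentrated in leukocyte barcodes. C1qa had 982 UMIs in 54 of 70 leukocyte barcodes (4047 CPM, interval 3799 to 4308), and no UMI in the 4 saline leukocyte barcodes. C1qb had 916 UMIs in 54 barcodes (3775 CPM, 3535 to 4027), and C1qc 557 UMIs in 50 barcodes (2296 CPM, 2109 to 2494), each again with 0 in saline. The saline gate held only 5289 UMIs in all, so that a limit of 3 UMIs corresponded to 567 CPM. Against that limit, which is set over the summed gate, the 3 chains together (10118 CPM) were 17.8-fold higher in cisplatin. The counting interval of the ratio began lower, at 14.5.

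At least 1 chain was seen in 55 of the 70 cisplatin leukocyte barcodes (78.6%, 67.1 to 87.5), and all 3 chains in 49. With every barcode thinned to 500 UMIs the share with any chain was again 78.6%, and the shares for C1qa, C1qb and C1qc were 74.3%, 71.4% and 58.6%. Median depth was 1359 UMIs in these barcodes. In endothelial barcodes of the same library, which should lack C1q and had a median of 2169 UMIs, C1qa was seen in 3.80%, and in proximal tubule barcodes, with a median of 742 UMIs, in 3.12%. In saline 0 of 4 leukocyte barcodes held a C1q UMI, and the exact interval of that share reached up to 60.2%. Ptprc, the gene for CD45, is a marker of this gate, and the flow cytometry check looked at CD45-negative cells. The gate sizes of 4 and 70 barcodes allow no comparison of shares between treatments.

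The C1q signal followed the macrophage markers. Of the 70 barcodes, 39 held more of 8 macrophage markers, such as Adgre1 and Csf1r, than of the monocyte, neutrophil, T and NK, B or dendritic cell lists. Among these 39, C1q was seen in 38, all 3 chains in 35, and the summed level was 16928 CPM. The level in single C1q-positive macrophage barcodes ran from 4878 to 39326 CPM with a median of 16913. Another 23 barcodes matched no subset, and 17 of these held C1q, with a summed level of 2969 CPM and a median of 9658 CPM (1013 to 22360) over the positive barcodes. One of the 23, with 42452 UMIs and no C1q UMI, held most of their depth, and without it the summed level was 8316 CPM. The 4 T and NK cell, 2 B cell, 1 neutrophil and 1 dendritic cell barcodes held no C1q UMI, and no barcode was led by monocyte markers. Of the 4 saline leukocyte barcodes, 2 were macrophage, 1 T and NK cell and 1 B cell, and the 2 macrophage barcodes held 2997 UMIs without a C1q UMI. A few deep barcodes carried much of the sum: the 10 richest held 68.2% of the 2455 C1q UMIs, and the richest held 448.

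**Figure D2:**
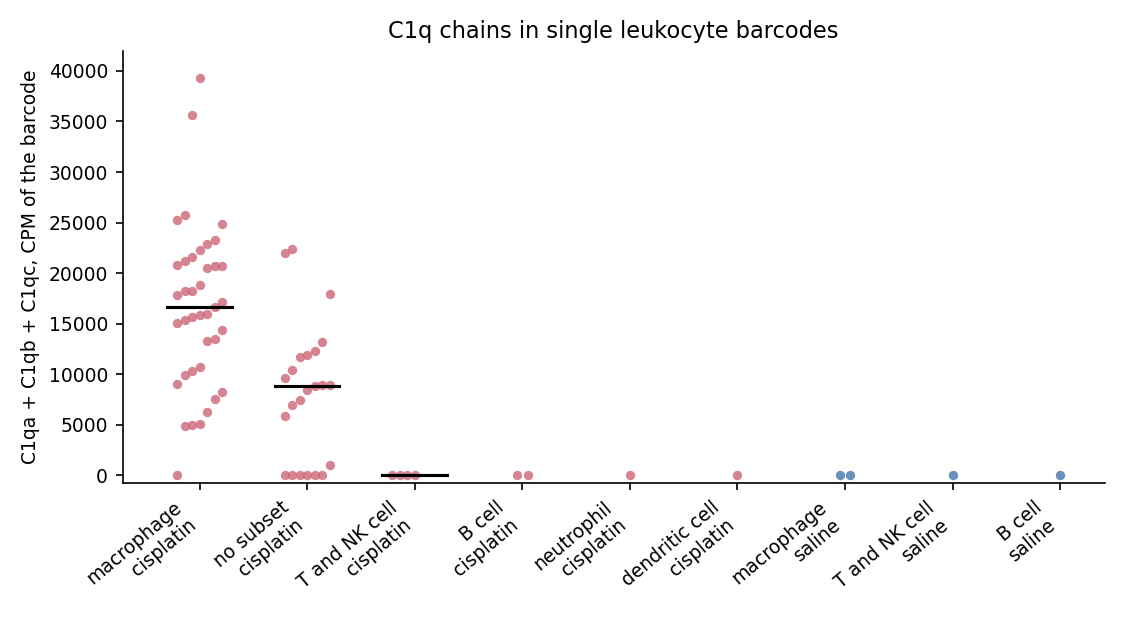
Summed level of C1qa, C1qb and C1qc (y axis, CPM of the barcode) in each of the 70 cisplatin (red) and 4 saline (blue) leukocyte barcodes, by the subset whose markers led (x axis); black lines are medians over barcodes, drawn where a subset held 4 or more. Macrophage barcodes reach 39326 CPM, and no T and NK cell, B cell, neutrophil, dendritic cell or saline barcode holds a C1q UMI.

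Outside leukocytes C1q was sparse. In endothelial barcodes the 3 chains together had 2 UMIs in saline and 19 in cisplatin (2.10 and 22.4 CPM; ratio 10.7, 2.58 to 94.6). Of those 19 UMIs, 11 lay in 1 barcode, which also held at least 2 leukocyte markers, and without it the level was 9.68 CPM. In proximal tubule barcodes the sum was 6 UMIs in saline and 129 in cisplatin (52.9 and 118 CPM; ratio 2.24, 1.0 to 6.21). There 7 barcodes with at least 3 C1q UMIs held 35.7% of the sum, 3 of them with at least 2 leukocyte markers. C1qa stood at 147 CPM (94.9 to 216) in the 140 cisplatin tubule barcodes with a leukocyte marker and at 32.6 CPM (22 to 46.6) in the 1015 without, and these intervals did not overlap. Collecting duct barcodes held no C1q UMI in either library.

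Barcodes of 1 to 100 UMIs mostly hold RNA that leaked from broken cells, and they carried C1q in both libraries. C1qa stood at 36.7 CPM in saline (136 UMIs) and 80.8 CPM in cisplatin (173 UMIs), a ratio of 2.20 (1.75 to 2.78). C1qb went from 25.9 to 70.1 CPM (96 and 150 UMIs; ratio 2.70, 2.08 to 3.53) and C1qc from 8.91 to 35.5 CPM (33 and 76 UMIs; ratio 3.98, 2.62 to 6.19). The levels of each chain did not overlap between libraries within their counting intervals. In such pooled RNA, more cells of a type and more RNA per cell cannot be told apart. In cisplatin the levels of C1qa ranked, from the highest, leukocyte, 1 to 100 UMIs, proximal tubule (50.5 CPM) and endothelial (10.6 CPM), with no neighbours in that order overlapping. C1qb had the same order without overlap, whereas for C1qc the intervals of the shallow barcodes (28.0 to 44.4 CPM) and of proximal tubule (15.6 to 34.9 CPM) overlapped. Saline had 265 C1q UMIs in shallow barcodes and 0 in gated leukocytes. In the shallow barcodes the 10 leukocyte markers summed to 192 CPM in saline and 272 CPM in cisplatin and the 8 macrophage markers to 433 and 386 CPM, and their part in the C1q levels was not tested.

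The balance of the 3 chains was compared across barcodes. C1qc made up 12.5% of C1q UMIs in the shallow saline barcodes (8.73 to 17.0) and 22.7% in cisplatin leukocytes (21 to 24.4), and these intervals did not overlap. In shallow cisplatin barcodes it made up 19.0% (15.3 to 23.3), which overlapped both. Such overlap does not decide whether the shallow barcodes of the libraries differ, and that difference was not tested. C1qa made up 51.3% (45.1 to 57.5), 40.0% (38.0 to 42.0) and 43.4% (38.4 to 48.4) in the same order, and C1qb 36.2%, 37.3% and 37.6%. Over the whole libraries C1qc made up 13.1% (9.57 to 17.4) in saline and 20.3% (19.2 to 21.4) in cisplatin. In barcodes of more than 100 and fewer than 500 UMIs it made up 15% (5.71 to 29.8) and 17.7% (16.1 to 19.5), and these intervals overlapped. Mitochondrial RNA and depth also differed between these barcodes, with 3.84% mitochondrial UMIs in the shallow saline and 30.6% in the shallow cisplatin barcodes, and their part in the chain balance was not tested.

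C4b (ENSMUSG00000073418, chr17:34728380-34743882, minus strand) encodes complement component 4, which the C1 complex cleaves next. It was the scarcest of the 8 genes, with 28 UMIs in all of saline and 202 in all of cisplatin. Endothelial barcodes held 1 UMI and 0, proximal tubule barcodes 1 and 7, and leukocyte and collecting duct barcodes none in either library. The limit of 3 UMIs stood at 12.4 CPM for cisplatin leukocytes. Among the shallow barcodes C4b went from 4.59 CPM (17 UMIs) to 13.1 CPM (28 UMIs), a ratio of 2.85 (1.51 to 5.55), and the intervals of the levels did not overlap. In the barcodes of 1 to 50 UMIs, however, the cisplatin library held no C4b UMI, and the ratio was 0 (up to 1.93). Its close copy C4a could share reads with it, so C4b values are uncertain to that extent.

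C3 (ENSMUSG00000024164, chr17:57203970-57228136, minus strand) encodes the central component on which the pathways converge. Its promoter (RefSeq, GRCm38.p6, chr17:57228087-57228386, minus strand) is shown because C3 was higher in cisplatin in tubule and shallow barcodes alike. Capitals mark a match to TTGCGNAA, the motif of C/EBP factors, which begins at position -45 relative to the start and is found on either strand in 0.807% of the 27025 promoters.
C3: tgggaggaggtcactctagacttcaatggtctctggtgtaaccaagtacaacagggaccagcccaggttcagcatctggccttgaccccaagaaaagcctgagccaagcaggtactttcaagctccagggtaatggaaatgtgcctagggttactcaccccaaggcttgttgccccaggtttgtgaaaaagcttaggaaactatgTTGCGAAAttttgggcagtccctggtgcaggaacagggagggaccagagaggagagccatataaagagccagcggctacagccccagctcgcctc
No match to the ETS core AGGAAGT, to the STAT motif TTCNNNGAA (8.47% of promoters) or to the IRF motif (3.49%) was found in this window. Of the 8 genes, 5 had a promoter in the RefSeq table, and among the other two of these the IRF motif matched in Cd59a and none of the 4 matched in Cd55.

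C3 was detected in proximal tubule barcodes of the cisplatin library and in none of saline. In cisplatin 51 UMIs lay in 45 of 1155 barcodes (46.8 CPM, 34.8 to 61.5), and in saline 0 UMIs lay in 144 barcodes, where a limit of 3 UMIs corresponded to 26.4 CPM. C3 was thus 1.77-fold higher against that limit over the gate, and the counting interval of the ratio began lower, at 1.39. The share of positive tubule barcodes in cisplatin was 3.90%, or 2.08% after thinning to 500 UMIs, and it was 0 of 70 in leukocyte barcodes and 2.53% in endothelial barcodes. The median depths of these gates were 742, 1359 and 2169 UMIs. The tubule level overlapped that of the barcodes of 1 to 100 UMIs (35.0 CPM, 27.6 to 43.9), and endothelial markers put the share of leaked RNA in cisplatin tubule barcodes at 66.9%. With that RNA subtracted the interval of the ratio began at 0.651, so the difference in tubule barcodes was then within counting error.

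The shallow barcodes themselves held more C3 in cisplatin. C3 stood at 13.5 CPM in saline (50 UMIs, 10.0 to 17.8) and 35.0 CPM in cisplatin (75 UMIs), a ratio of 2.60 (1.79 to 3.79), and the intervals of the levels did not overlap. At 1 to 50 UMIs the ratio was 1.56 (0.715 to 3.16). The richest barcode for C3 in cisplatin was a stroma barcode with 12 of the 13 C3 UMIs of that gate, among 1467 UMIs and with 5 stroma markers. The stroma gate held 21 cisplatin and 2 saline barcodes, and its C3 level in cisplatin was 151 CPM (80.5 to 259).

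Cfb (ENSMUSG00000090231, chr17:34856374-34862518, minus strand) encodes factor B, the protease of the alternative pathway, and lies directly beside the gene for complement C2. In endothelial barcodes it had 10 UMIs in 9 of 438 saline barcodes (10.5 CPM, 5.03 to 19.3) and 45 UMIs in 28 of 158 cisplatin barcodes (53.1 CPM, 38.7 to 71.0). The intervals did not overlap and the ratio was 5.06 (2.52 to 11.3), the only one of the complement genes called higher in this gate, where 13.2% of the genes measured were. The share of positive barcodes was 2.05% in saline (median depth 1070 UMIs) and 17.7% in cisplatin (2169 UMIs), or 0.228% and 3.80% with each barcode thinned to 500 UMIs. In cisplatin leukocytes 1 of 70 barcodes (1.43%) held a Cfb UMI. Thinning left so few Cfb UMIs that the result depended on the random draw: the draw behind these shares had 1 positive barcode in saline and 6 in cisplatin, whereas another draw gave a summed ratio of 2.08 (0.305 to 12.3), within counting error. With every barcode weighted equally, which needs no draw, the mean level was 11.0 CPM in saline and 74.1 CPM in cisplatin.

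The richest cisplatin barcodes for Cfb were themselves endothelial, with 6 UMIs of 6717, 5 of 3418 and 3 of 7869 and with 9 or 10 of the 10 endothelial markers. These 3 barcodes also held 2, 3 and 2 proximal tubule markers. A barcode over the mitochondrial limit had 3 Cfb UMIs of 743, with 4 proximal tubule markers and 1 endothelial marker. In saline the richest endothelial barcode had 2 UMIs of 1832, with 6 endothelial markers and 0 proximal tubule markers. The endothelial level in saline was 0.212 times the level of the barcodes of 1 to 100 UMIs, and in cisplatin it was 1.10 times that level. Among endothelial barcodes led by capillary genes Cfb had 2 UMIs in 269 saline and 38 in 123 cisplatin barcodes (6.63 and 52.3 CPM; ratio 7.88, 2.04 to 67.4). Among those led by large-vessel genes it had 7 UMIs in 131 and 6 in 13 barcodes (13.9 and 62.7 CPM; ratio 4.51, 1.25 to 15.7). The large-vessel set had 13 UMIs in all, under the minimum of 20 for a call, the intervals of its levels overlapped, and the intervals of the 2 ratios overlapped as well. The vessel lists were chosen after values had been seen.

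Markers of other cells moved with this result. In the endothelial gate all 10 proximal tubule markers were detected in both libraries and summed to 334 CPM in saline and 757 CPM in cisplatin. The 9 injured tubule genes summed to 58.7 CPM (5 detected) and 1568 CPM (9 detected), and the 10 collecting duct markers to 8.39 CPM (6 detected) and 1975 CPM (10 detected). Podocyte markers did not move in this way (614 and 564 CPM), and in barcodes without any podocyte marker the Cfb ratio was 7.73 (2.24 to 41.2). In barcodes without any proximal tubule marker Cfb had 6 UMIs in 227 saline and 2 in 25 cisplatin barcodes (12.6 and 32.5 CPM; ratio 2.57, 0.254 to 14.4), a number too small to show a difference. Without the 5 deepest barcodes of each library the ratio was 5.66 (2.77 to 12.7), and with leaked RNA subtracted it was 5.54 (2.66 to 12.9). The share subtracted was 2.61% in saline and 7.65% in cisplatin, set from proximal tubule markers alone. In shallow cisplatin barcodes the injured tubule genes summed to 1956 CPM and the collecting duct markers to 635 CPM. That share therefore leaves most of their level in the gate, and their part in the Cfb ratio was not tested.

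**Figure D3:**
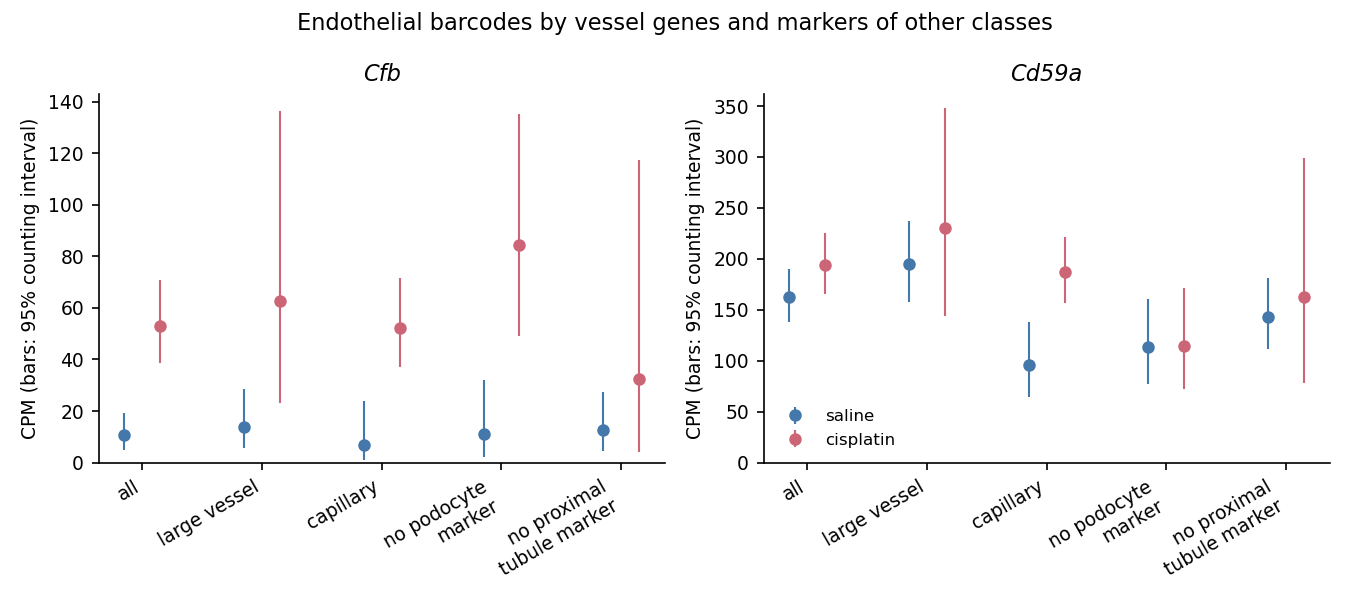
Level of Cfb (left) and Cd59a (right) in CPM (y axis) in saline (blue) and cisplatin (red) endothelial barcodes, for all of them and for those led by large-vessel genes, led by capillary genes, without a podocyte marker, or without a proximal tubule marker (x axis); bars are 95% counting intervals. The Cfb bars of the libraries are apart in all barcodes, in the capillary set and in the set without podocyte markers, and they overlap in the large-vessel set and in the set without proximal tubule markers, whereas Cd59a is higher in capillary barcodes and near level in the set without podocyte markers.

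In proximal tubule barcodes Cfb was present in both libraries, and the wide counting intervals of its levels overlapped. It had 7 UMIs in saline (61.7 CPM, 24.8 to 127) and 85 in cisplatin (78.0 CPM, 62.3 to 96.4), a ratio of 1.26 (0.588 to 3.24). Among the barcodes of 1 to 100 UMIs the levels were 49.4 CPM (183 UMIs) and 48.1 CPM (103 UMIs), a ratio of 0.974 (0.757 to 1.25), and the intervals overlapped. The tubule levels were 1.25 times the shallow level in saline and 1.62 times in cisplatin. Endothelial markers put the share of leaked RNA in the tubule barcodes at 59.5% and 66.9%. Within the cisplatin tubule barcodes, Cfb stood at 57.3 CPM (36.3 to 86.0) where none of the 9 injury genes, such as Havcr1 and Lcn2, was detected, at 74.6 CPM (52.0 to 104) with 1 of them and at 123 CPM (80.9 to 179) with at least 2. All these intervals overlapped one another, those of the first and last sets included. The median depth was 679 UMIs in the first set and 1107 UMIs in the last. The C3 levels did not rise in this order, with 32.4, 64.0 and 36.4 CPM in the same sets.

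Cd55 (ENSMUSG00000026399, chr1:130439027-130462744, minus strand) encodes decay-accelerating factor, which dismantles the enzymes that cleave C3. Its endothelial level was 14.7 CPM in saline (14 UMIs, 8.03 to 24.6) and 22.4 CPM in cisplatin (19 UMIs, 13.5 to 35.0), a ratio of 1.53 (0.726 to 3.29). The shallow barcodes had 14.3 CPM (53 UMIs) and 11.7 CPM (25 UMIs), a ratio of 0.816 (0.486 to 1.34). The intervals of the libraries overlapped in both. Proximal tubule barcodes held 1 and 16 UMIs, the collecting duct gate 1 and 1, and cisplatin leukocytes 3 UMIs, all in the 2 B cell barcodes. The near copy Cd55b could share reads with Cd55.

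Cd59a (ENSMUSG00000032679, chr2:104095801-104115354, plus strand) encodes a membrane protein that blocks the pore formed by the last steps of the cascade. Most of its UMIs in kept barcodes were endothelial in both libraries, and these made up 38.1% and 19.1% of its UMIs in the whole libraries. The endothelial gate held 155 UMIs in 97 of 438 saline barcodes (162 CPM, 138 to 190) and 164 UMIs in 44 of 158 cisplatin barcodes (194 CPM, 165 to 225). These levels were 3.12 and 7.02 times those of the barcodes of 1 to 100 UMIs, and they overlapped between libraries (ratio 1.19, 0.95 to 1.49). The share of positive barcodes was 22.1% and 27.8%, or 7.08% and 5.70% after thinning to 500 UMIs, with 0 of 70 in cisplatin leukocytes (which allows a level of up to 12.4 CPM) and 2.51% in cisplatin proximal tubule barcodes. In capillary barcodes Cd59a had 29 UMIs in saline and 136 in cisplatin (96.1 and 187 CPM; ratio 1.95, 1.29 to 3.01), whereas in large-vessel barcodes it had 98 and 22 UMIs (195 and 230 CPM; ratio 1.18, 0.708 to 1.89). The difference between these ratios was not tested and their intervals overlap. The 3 richest capillary barcodes in cisplatin held 42.7% of the Cd59a UMIs there, and the deepest endothelial barcode, of 116215 UMIs and with markers of all 7 classes, held 23 of them. The small podocyte gate had higher levels, 686 CPM in saline (252 to 1493, with 6 UMIs in 1 barcode) and 328 CPM in cisplatin (67.6 to 958, with 3 UMIs). Endothelial barcodes with a podocyte marker stood at 182.5 CPM in saline and 218 CPM in cisplatin, and those without one at 113 and 114 CPM. Barcodes with the marker were deeper, and the part of podocyte RNA or depth in these levels was not tested.

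Among the barcodes of 1 to 100 UMIs Cd59a was lower in cisplatin, with 52.1 CPM in saline (193 UMIs, 45 to 60) and 27.6 CPM in cisplatin (59 UMIs, 21 to 35.6), a ratio of 0.529 (0.388 to 0.711). Without mitochondrial UMIs in the total that ratio was 0.733 (0.538 to 0.986), no longer past 1.5-fold. The 10 endothelial markers in these barcodes summed to 2177 CPM in saline and 1397 CPM in cisplatin, and their part in the Cd59a levels was not tested. Proximal tubule barcodes held 4 and 34 UMIs (35.3 and 31.2 CPM; ratio 0.885, 0.316 to 3.43), and their level overlapped that of the shallow barcodes in each library. The collecting duct gate held 6 UMIs in its 1 saline barcode and 11 in 2 of 9 cisplatin barcodes. Kept barcodes without a class, which were tied or had too few markers, held 3 UMIs in saline and 87 in 15 of 269 cisplatin barcodes. Of the 87, 40 lay in 1 barcode with all 10 endothelial and all 10 podocyte markers. The near copy Cd59b could share reads with Cd59a.

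**Figure D4:**
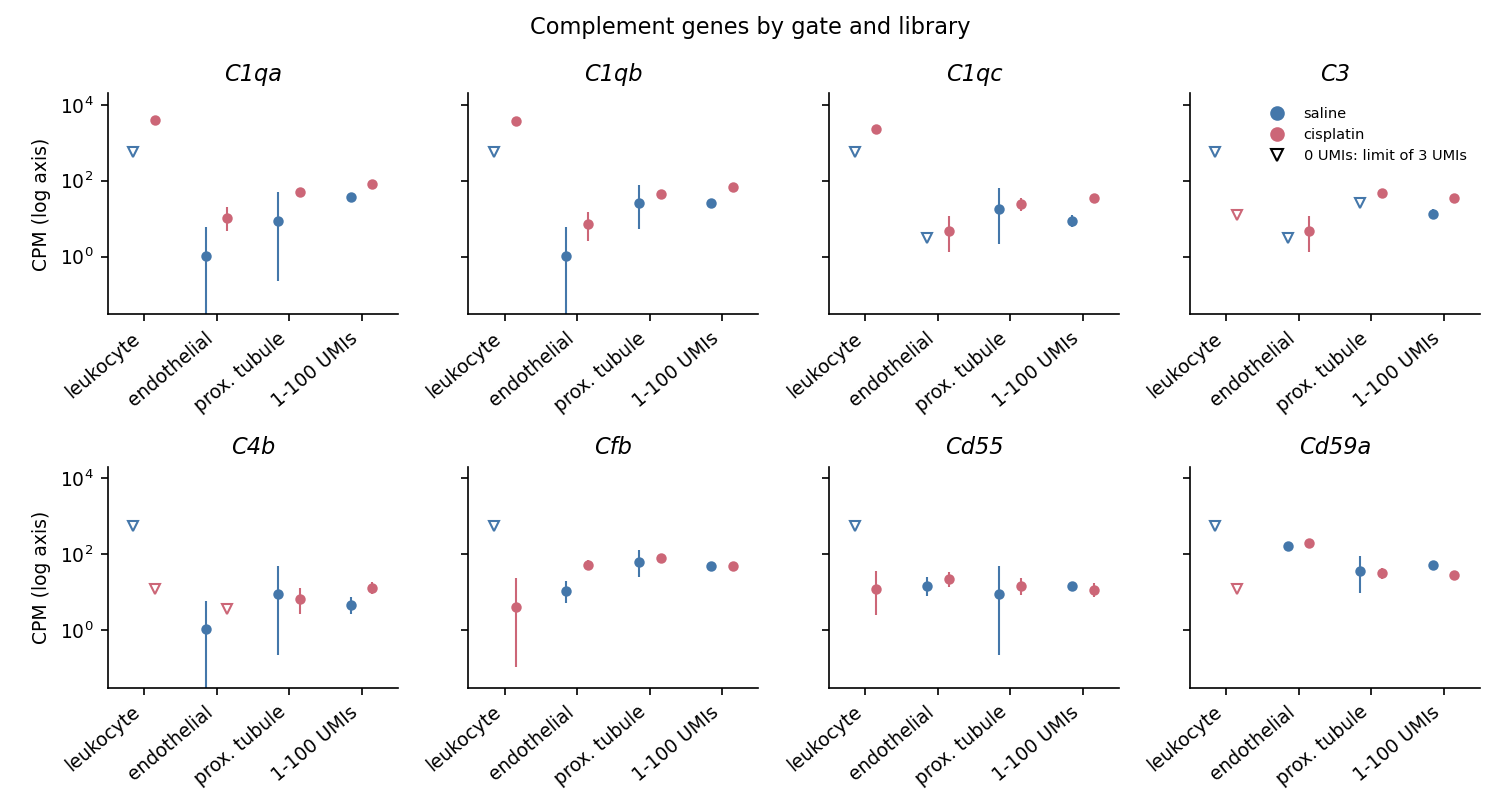
Level of each complement gene (panels) in CPM on a log axis (y axis) in saline (blue) and cisplatin (red), in leukocyte, endothelial and proximal tubule barcodes and in barcodes of 1 to 100 UMIs (x axis); bars are 95% counting intervals and open triangles mark 0 UMIs at the limit of 3 UMIs. C1q is highest in cisplatin leukocytes, Cd59a in the endothelial gate of both libraries, and Cfb has its clearest separation in the endothelial gate.

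Counted over the 8 genes, a gene was taken as higher or lower when its ratio passed 1.5-fold and its interval left out 1, given at least 20 UMIs over both libraries. In endothelial barcodes 3 of the 8 had enough UMIs, and 1 (Cfb) was higher and 0 lower, where 13.2% of 8647 genes were higher and 9.68% lower. In proximal tubule barcodes 6 of the 8 had enough, and 1 (C3) was higher and 0 lower, against 2.94% and 4.58% of 8268 genes. In barcodes of 1 to 100 UMIs all 8 had enough, and 5 (C1qa, C1qb, C1qc, C3 and C4b) were higher and 1 (Cd59a) lower, against 14.4% and 20.7% of 12375 genes. The median log2 ratio of the genes with enough UMIs was 0.61 in endothelial, 0.44 in proximal tubule and 1.26 in shallow barcodes, beside 0.04, 0.00 and -0.07 over all genes measured. A gene that reached 20 UMIs through one library alone tends to differ, so these counts describe the genes measured and not all 8. Leukocyte and collecting duct gates were too small in saline for such a count.

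**Figure D5:**
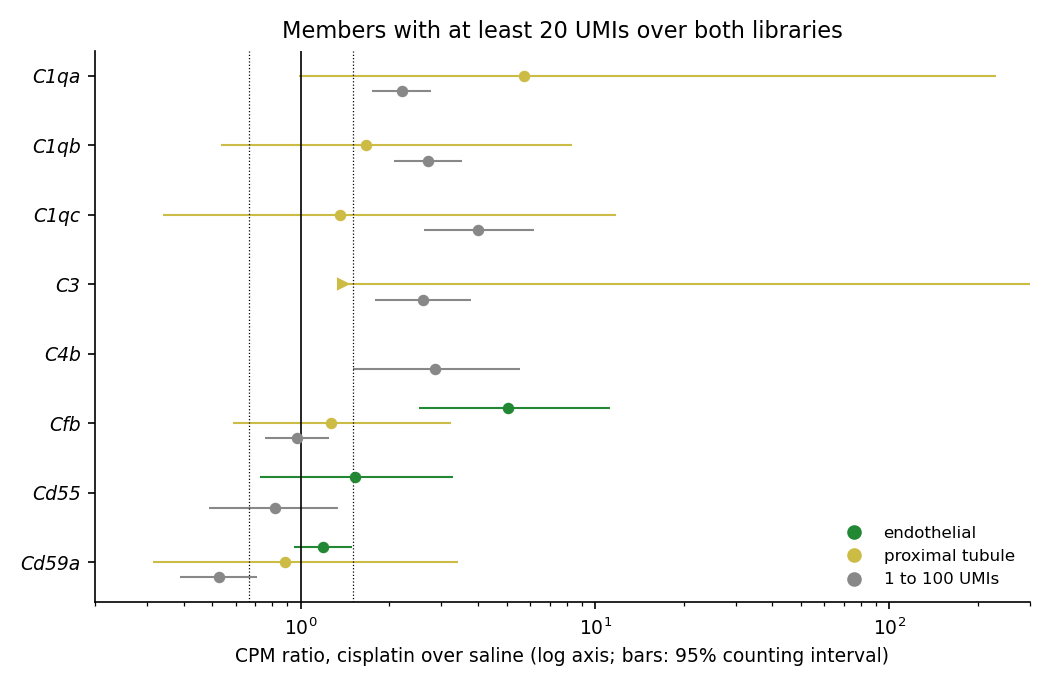
CPM ratio of cisplatin over saline on a log axis (x axis) for the complement genes (y axis) with at least 20 UMIs over both libraries, in endothelial (green), proximal tubule (yellow) and 1 to 100 UMI (grey) barcodes; bars are 95% counting intervals, the solid line marks a ratio of 1, dotted lines mark 1.5-fold either way, and the triangle is the lower bound for C3, whose saline count was 0. The 3 C1q genes, C3 and C4b lie to the right in shallow barcodes, Cd59a lies to the left, and Cfb lies to the right in endothelial barcodes.

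The rest of the pathway was followed through 46 other complement genes grouped by role. In endothelial barcodes 7 of the 46 had at least 20 UMIs, and 2 were higher and 3 lower. Of the higher ones, Serping1 (C1 inhibitor, a soluble regulator that restrains the classical pathway) went from 3 to 18 UMIs (3.15 to 21.2 CPM; ratio 6.75, 1.97 to 35.8). The lower ones were Cd93, an endothelial surface receptor (927 to 317 CPM; ratio 0.342, 0.298 to 0.393), Thbd (thrombomodulin, 678 to 335 CPM; ratio 0.494, 0.428 to 0.569) and C1qbp, a mitochondrial protein that can bind C1q (73.4 to 38.9 CPM; ratio 0.530, 0.339 to 0.813). Clu (clusterin) and Cr1l (Crry, a surface regulator of C3) differed by less than 1.5-fold. No protease of the classical pathway, lectin pathway gene or terminal component had enough UMIs in this gate.

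In proximal tubule barcodes 10 of the 46 had enough UMIs, and 1 was higher and 0 lower. That gene was Clu, a soluble regulator of the terminal steps that is known to rise in injured tubules, which went from 79.3 to 170 CPM (9 and 185 UMIs; ratio 2.14, 1.10 to 4.75). In the collecting duct gate Clu was also the most abundant, with 1 UMI in the 1 saline barcode and 273 in 4 of 9 cisplatin barcodes (2193 CPM), and Cr1l followed with 2 and 20 UMIs. Of the 124489 UMIs of this cisplatin gate 91183 lay in 1 barcode, and in the gate the loop and distal tubule markers (2105 CPM) exceeded the collecting duct markers (1478 CPM) and the 9 injured tubule genes summed to 40301 CPM. Their part in the Clu level was not tested.

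In barcodes of 1 to 100 UMIs 20 of the 46 had enough, and 7 were higher and 3 lower. The soluble regulators Clu (74.8 to 224 CPM; ratio 3.0, 2.58 to 3.49) and Serping1 (14.3 to 43.9 CPM; ratio 3.07, 2.17 to 4.38) were higher. Of the receptors, Itgax and Itgb2, which pair into a leukocyte receptor for C3 fragments, were higher (ratios 2.60, 1.32 to 5.23, and 2.02, 1.02 to 4.02) and Cd93 was lower (ratio 0.352, 0.273 to 0.450). The classical pathway protease gene C1s1 and the C2 gene were higher as well (ratios 1.77 and 1.73), and Cr1l and the lectin pathway gene Colec12 were lower (ratios 0.483 and 0.561). In cisplatin leukocytes the highest of the 46 were Itgb2 (202 CPM, 20 of 70 barcodes) and C5ar1, the receptor for C5a (173 CPM, 15 of 70), and in saline leukocytes these had 1 UMI (189 CPM) and 0 UMIs (a limit of 567 CPM), which shows no difference.

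The genes whose levels tracked each complement gene most closely were found from Pearson's r of log2(CPM + 10) over 7 profiles, which share libraries and leaked RNA. C1qa was followed by Ccl6, Lyz2 and Rasgrp4, C1qb by Lyz2 (r = 0.997), C1qc (0.995) and Runx1, and C1qc by C1qb and Tgfbi. Cd59a was followed by Fgd5, 2510009E07Rik and Mmrn2, C3 by Ccbe1 (0.997), Gm49774 and Ap1m2, and Cfb by Camk2n1 (0.989), 2310030G06Rik and Tctn2. C4b was followed by Sec16b (0.985), Apbb3 and Plekhn1, and Cd55 by Kdelr1 (0.959), Ttll1 and Ocel1. With 7 points high values are common among so many genes, and the names are a description only.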

How the data were processed

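Cell Ranger 6.0.1 and mm10 are named by the submitters' processing notes, whereas the file headers carry the mark of version 4. The authors deposited unfiltered UMI counts for each barcode and gene, as whole numbers without normalization. The cell calls of the authors were not used here. The complement genes, gene lists and cell lists were chosen with earlier results of these data known, as were the results they are set beside.

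Counts were read with Python 3.11.15, numpy 2.4.6, scipy 1.17.1 and pandas 2.3.3. A barcode with at least 500 UMIs and at most 20% mitochondrial UMIs went to the class with the most distinct markers (leukocyte, endothelial, proximal tubule, collecting duct, podocyte, stroma, loop and distal tubule), with at least 2, or 3 for proximal tubule, and ties stayed ungated. The podocyte, stroma, and loop and distal tubule gates took 3, 2 and 5 barcodes in saline and 11, 21 and 36 in cisplatin. Macrophage, monocyte, neutrophil, T and NK cell, B cell, dendritic cell, lymphatic endothelial and injured tubule lists described barcodes without gating them. No doublet caller was run, and an alternative kept only barcodes with markers of 1 class.

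UMIs were summed per gate and library and expressed as CPM over all UMIs of the gate. The CPM ratio has an exact conditional binomial (Clopper-Pearson) 95% interval, and shares and CPM levels have exact binomial (Clopper-Pearson) intervals. A fold against 0 used a limit of 3 UMIs. The calculation was checked on simulated data. PCR duplicates are removed by UMIs, so intervals cover the sampling of molecules alone.

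All 8 complement genes are named. Of 46 other complement genes, those past 1.5-fold with at least 20 UMIs were ranked, at most 4 named per gate by rule with the 2 highest by CPM, and C1s1, C2, Colec12, Cr1l (outside the collecting duct gate) and Clu (in the endothelial gate) were added after their values were seen. Some genes that these choices pick are not reported here. Alike genes were the 3 with the highest r over gates of at least 10 barcodes. Alternatives changed the UMI minimum, mitochondrial limit, marker minimum, exclusive gating, scaling, leaked RNA, thinning, equal weights of barcodes, UMI filter and the shallow range.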

Additional observations from a re-analysis of the deposited data

Results flagged for a closer look

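Barcodes of more than 100 and fewer than 500 UMIs, used above for the C1q chain balance but for no comparison of levels, carried C1q and C3 transcripts above their saline level. They numbered 5997 in saline and 69597 in cisplatin and held 17.8% and 66.9% of all UMIs. C1qa stood at 62.1 CPM in cisplatin and 15.3 CPM in saline, C1qb at 59.2 and 17.2 CPM, C1qc at 26.2 and 5.73 CPM, and C3 at 35.9 and 8.59 CPM. With all UMIs in the total the other 4 genes passed 1.5-fold in neither direction. Their ratios were 1.31 for C4b (0.674 to 2.93), 0.982 for Cfb (0.746 to 1.32), 0.903 for Cd55 (0.53 to 1.65) and 0.849 for Cd59a (0.614 to 1.21). The C1q chains together had a ratio of 3.86 (2.83 to 5.42), with 40 UMIs in saline and 1973 in cisplatin. The cisplatin C1q UMIs were spread over 1708 barcodes, of which 46 held at least 3, with 10.1% of the sum, and 21 of those 46 also held at least 2 leukocyte markers. Saline had no barcode of this range with more than 1 C1q UMI. Mitochondrial UMIs made up 36.2% of this range in cisplatin and 3.86% in saline. Without them in the total, C4b stood at 17.7 CPM in cisplatin and 8.94 CPM in saline, and Cfb at 80.9 and 54.6 CPM. Cd55 then stood at 20.3 and 14.9 CPM and Cd59a at 50.9 and 39.7 CPM, so the values of these 4 genes were all higher in cisplatin. No interval was computed for these 4 differences, so they are not shown to exceed counting error. The part of depth and mitochondrial RNA in these levels was not tested further.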

How the results depend on the processing

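The leukocyte C1q share in cisplatin ran from 72.1% to 81.8% over 7 alternatives. The endothelial Cfb ratio ran from 4.63 to 5.54 over the alternatives set out at the start and from 2.08 (1 draw of 500 UMIs per barcode) to 7.88 (capillary barcodes) over those chosen after seeing the data, with 6.71 when every barcode weighed equally. In barcodes of 1 to 100 UMIs the summed C1q ratio was 3.61 without mitochondrial UMIs in the total. In barcodes of 1 to 50 UMIs the C3 ratio was 1.56, the C4b ratio was 0 and turned direction, and 3 genes were higher and 0 lower. Without mitochondrial UMIs 0 genes were lower there. In the endothelial gate the count of higher genes was 0 with exclusive gating, with large-vessel barcodes only and without proximal tubule markers, where fewer barcodes and UMIs were left, and 2 with no UMI minimum and with capillary barcodes only. In the proximal tubule gate it was 2 with a minimum of 300 UMIs, with 1 more marker per gate, without mitochondrial UMIs and with median-of-ratios scaling, and 0 with a minimum of 1000 UMIs, with exclusive gating and with leaked RNA subtracted. For the other shifts the cause was not tested. Of the main values 75 stayed close and 18 moved, and of the others 147 stayed close, 38 moved and 1 turned. Leaving out mitochondrial UMIs moved the median of all genes by 0.47 on the log2 scale in shallow barcodes and 0.12 in proximal tubule barcodes, and median-of-ratios scaling raised ratios in the latter, where the median log2 ratio of genes with 20 UMIs in each library was -0.22. No paired analysis was possible because each treatment had 1 library. Depth limits the saline leukocyte and collecting duct gates, with 5289 and 15630 UMIs.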
